A study of Mus musculus with 6 samples.

Results

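Peaks of accessible chromatin were examined around 4 cardiac regulatory genes, *Nkx2-5*, *Hand1*, *Hand2* and *Smyd1*, in the posterior second heart field and the atria of the mouse embryo. A peak was included when its summit lay within 100 kb of the gene body in mm10. This gave 82 of 93285 peaks, 48 of 49267 in the atrial list (HT) and 34 of 44018 in the posterior second heart field list (pSHF). Both tissues were taken from wild-type (WT) CD1 embryos at embryonic day 10, and pooled tissue was dissociated before transposition with Tn5. Neither tissue carried an allele, transgene or treatment that the other lacked. Each tissue has 3 samples, but each value below comes from 1 peak list per tissue. No value per sample was used. The spread between samples is therefore unknown, and no test between tissues was made.

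NKX2-5 is a homeodomain transcription factor that marks cardiac progenitors early and acts with GATA4 and TBX5 on genes of the heart muscle. HAND1 and HAND2 are basic helix-loop-helix factors that bind DNA as dimers with E proteins. HAND2 is known for its role in progenitors of the second heart field and is also expressed in branchial arches, limb buds and sympathetic neurons, while HAND1 is known from the left ventricle and from lateral and extraembryonic mesoderm. SMYD1, also called BOP, is a muscle-restricted histone methyltransferase with SET and MYND domains, and mouse hearts without it form a poor right ventricle with little *Hand2* expression.

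Peaks touching at least 1 bp of a peak in the opposite list are called shared, and the remaining peaks restricted. A restricted peak is one without a call in the opposite list, where a weaker open site may still exist. Fold enrichment and −log10 q are the values of the authors' peak caller at the summit. The summit pileup, in reads, was recovered from the fold enrichment and the p-value. At the genome-wide background, a pileup of 5 reads was enough for a peak in either list. More reads were needed where the caller's local background was higher. Around the *Hand2* start, for example, it was 2.98 to 3.11 reads at HT peaks. A tissue piece holds several cell types, so fewer open cells and less open chromatin per cell cannot be told apart.

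The start sites of *Nkx2-5*, *Hand2* and *Smyd1* lay under an HT peak, and none of the 3 start bases lay under a pSHF peak. An HT peak without a pSHF peak over the start base was found at 3.55% of 17274 protein-coding genes with a RefSeq start. The promoters are shown because the lists differed at the start bases. They are the 250 bases before each start in RefSeq (GRCm38.p6), written 5′ to 3′ on the gene's strand. A pSHF peak covered 171 of these bases at *Smyd1* and none at *Nkx2-5* or *Hand2*. *Nkx2-5* is chr17:26841566-26841815 on the minus strand, *Hand2* is chr8:57320733-57320982 on the plus strand and *Smyd1* is chr6:71262282-71262531 on the minus strand. Capitals mark matches to an E-box (CANNTG), an NK2 motif (AAGTG), GATA motifs (AGATAA or TGATAA) and a TATA motif (TATAAA), on either strand.
Nkx2-5: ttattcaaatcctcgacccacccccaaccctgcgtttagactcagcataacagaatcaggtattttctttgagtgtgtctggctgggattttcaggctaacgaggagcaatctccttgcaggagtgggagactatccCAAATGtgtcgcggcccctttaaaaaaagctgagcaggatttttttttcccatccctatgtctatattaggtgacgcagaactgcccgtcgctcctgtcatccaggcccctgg
Hand2: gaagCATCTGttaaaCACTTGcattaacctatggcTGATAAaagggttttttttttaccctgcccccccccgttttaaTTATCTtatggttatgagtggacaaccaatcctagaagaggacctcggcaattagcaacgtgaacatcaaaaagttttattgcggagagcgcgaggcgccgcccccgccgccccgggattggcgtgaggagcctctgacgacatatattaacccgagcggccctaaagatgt
Smyd1: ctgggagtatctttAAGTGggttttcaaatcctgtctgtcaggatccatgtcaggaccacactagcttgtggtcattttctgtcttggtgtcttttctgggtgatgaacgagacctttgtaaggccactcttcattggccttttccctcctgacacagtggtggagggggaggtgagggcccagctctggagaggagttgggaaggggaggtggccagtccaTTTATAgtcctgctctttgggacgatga

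The *Nkx2-5* promoter held 1 E-box match (CAAATG, 113 to 108 bases before the start), and it lay under the HT peak. The *Hand2* promoter held a HAND-type E-box (CATCTG), a further E-box (CACTTG) that overlapped an NK2 match, and 2 GATA matches (TGATAA and TTATCT). These lay 246 to 167 bases before the start, outside the HT peak, which began 125 bases before it. The *Smyd1* promoter held an NK2 match and a TATA match 28 to 23 bases before the start, and both lay under the HT peak. Among 32851 RefSeq promoters of the same length, 66.2% held an E-box, 40.7% an NK2 match, 16.6% a GATA match, 14.4% the HAND-type E-box and 12.4% the TATA match. No match to T-box letters (GGTGTGA or GGTGTTA), GLI letters (ACCACCC) or a MEF2 pattern (CTA and TAG with any 4 bases between) stood in these 3 windows. Such letters occurred in 4.62%, 3.92% and 3.20% of promoters. The loose SRF pattern (CC and GG with any 6 bases between), left in lower case, had 2 matches each in *Hand2* and *Smyd1*, with 1 pair overlapping in *Hand2*, and occurred in 67.1% of promoters. CpG pairs numbered 15 in *Hand2*, 8 in *Nkx2-5* and 2 in *Smyd1*, against a median of 6.

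At *Nkx2-5* the promoter peak was present in the atria and had no counterpart nearby in the pSHF. This HT peak, chr17:26841411-26841694, had a summit 37 bases before the start, a fold enrichment of 7.52, a −log10 q of 12.6 and a pileup of 21 reads. The nearest pSHF peak lay 44471 bp away. The *Nkx2-5* start used here lies inside the annotated gene body, whose upstream end is at chr17:26844988. Neither list had a peak at that end. The *Hand2* promoter peak, chr8:57320858-57321147, was also restricted to HT, with its summit 7 bases before the start. It had a fold enrichment of 6.08, a −log10 q of 11.3 and a pileup of 24 reads, and it also covered the promoter of the divergent noncoding gene *Hand2os1*. The nearest pSHF peak lay 7427 bp away. HT peaks without a pSHF peak over the promoter window (250 bases before to 50 after the start) occurred at 2.89% of the 17274 genes.

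*Smyd1* differed from these 2 genes in having a pSHF peak in its promoter. The HT peak, chr6:71262235-71262723, had a summit 199 bases before the start, a fold enrichment of 6.58 and a pileup of 18 reads. The pSHF peak, chr6:71262308-71262478, ended 27 bases before the start and reached a fold enrichment of 3.77 with 6 reads and a −log10 q of 2.11. The pileup was 3.0 times higher in HT, with an exact 95% interval of 1.14 to 9.23 that covers counting error only. Pileups are not scaled for depth, and their median ratio over all shared pairs of the genome, 1.30, lies inside this interval. For *Hand1*, no peak of either list lay inside the gene body. The closest was a weak shared site whose HT summit lay 8550 bp from its lower-coordinate end.

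**Figure D1:**
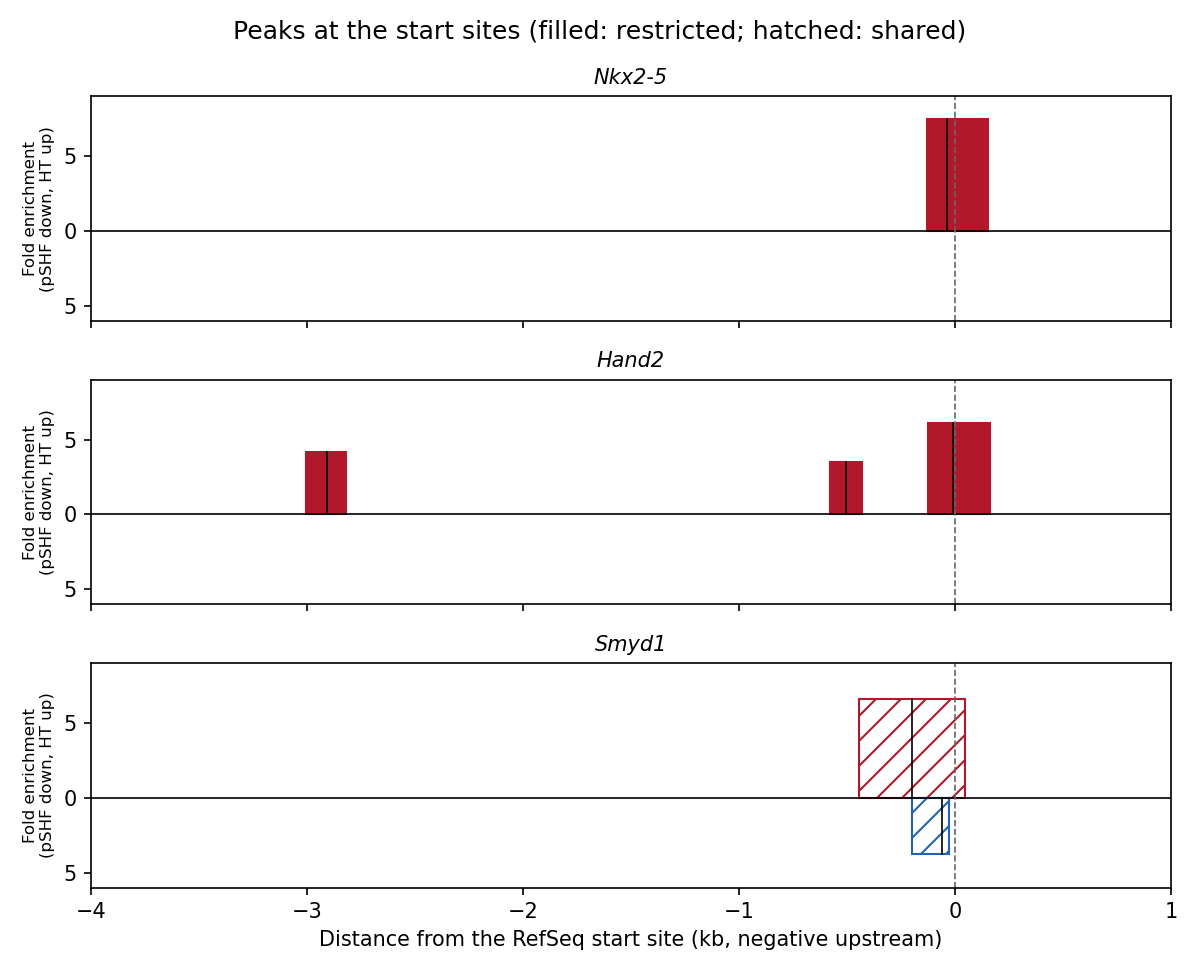
Peaks near the RefSeq start sites of *Nkx2-5*, *Hand2* and *Smyd1*, with distance from the start in kb (negative upstream) against fold enrichment. Bars span the peaks, HT upward in red and pSHF downward in blue, filled when restricted and hatched when shared, and the black line is the summit. A pSHF bar appears only at *Smyd1*, where it is lower than the HT bar (3.77 against 6.58).

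Around *Nkx2-5* the HT-restricted peaks lay at the gene and between protein-coding genes, while the shared peaks lay at promoters of its neighbours. The gene body occupies chr17:26838664-26844988, and the window held 11 HT peaks, 6 of them restricted, and 7 pSHF peaks, 1 of them restricted. Genome-wide, 45.5% of HT peaks and 34.4% of pSHF peaks were restricted. The exact 95% intervals of the window's shares, 23.4 to 83.3% for HT and 0.361 to 57.9% for pSHF, include those values. Intervals of shares, here and below, treat the peaks of a window as independent, which neighbouring peaks may not be. They describe the counts and are no test. All 5 shared HT peaks overlapped the promoter window of another gene, namely *Bnip1*, *Gm17382*, *Kifc5b*, *Phf1* and *Cuta*. None of the 6 restricted HT peaks did so. A similar split is found in the whole HT list by a related measure, a summit within 1 kb of a protein-coding gene end. This held for 46.2% of shared and 8.96% of restricted HT peaks.

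The 6 HT-restricted peaks of *Nkx2-5* held 12 to 24 reads each. Besides the promoter peak, 4 lay upstream. The nearest, chr17:26850560-26851090, had its summit 9.44 kb before the start, with a fold enrichment of 5.08 and 12 reads. The next, chr17:26868779-26869081, lay 27.3 kb before the start inside the noncoding gene *Gm17382*, with a fold enrichment of 6.49 and 16 reads. The strongest, chr17:26885008-26885227, lay 43.5 kb before the start, also inside *Gm17382*. It reached a fold enrichment of 9.08, a −log10 q of 16.7 and 24 reads, more than 80.2% of HT peaks by fold enrichment. The farthest, chr17:26892533-26892908, lay 51.1 kb before the start with 7.60 and 18 reads. On the downstream side, chr17:26813557-26813710 lay 27.9 kb from the start with 6.86 and 12 reads. Only 3 of the 6 had *Nkx2-5* as the nearest protein-coding gene. The strongest and the farthest upstream lay nearer to *Kifc5b*, and the downstream one nearer to *Bnip1*. All 6 had a −log10 q of at least 5, which 40.9% of HT-restricted peaks reached genome-wide. Upstream cardiac enhancers of *Nkx2-5* are known from transgenic mice, and whether any of these peaks coincides with one was not tested.

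The single pSHF-restricted peak of this window, chr17:26794850-26795025, was weak. It had a fold enrichment of 3.43, 6 reads and a −log10 q of 1.68, and lay 43.7 kb below the gene body, nearest to *Bnip1*. The strongest peak of the window in both lists stood at the *Kifc5b* promoter, with a fold enrichment of 18.9 in HT and 9.84 in pSHF. All 6 shared pairs of the window had the higher fold enrichment in HT, by 1.28 to 1.92 times. The pairs at *Phf1* used the same HT peak. Genome-wide, 78.1% of pairs were higher in HT, with a median ratio of 1.25. A site at the start of *Gm17382*, 44.7 kb before the *Nkx2-5* start, had 8.64 in HT and 5.75 in pSHF, and the pSHF peak there was 938 bp from the strongest restricted peak described above.

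**Figure D2:**
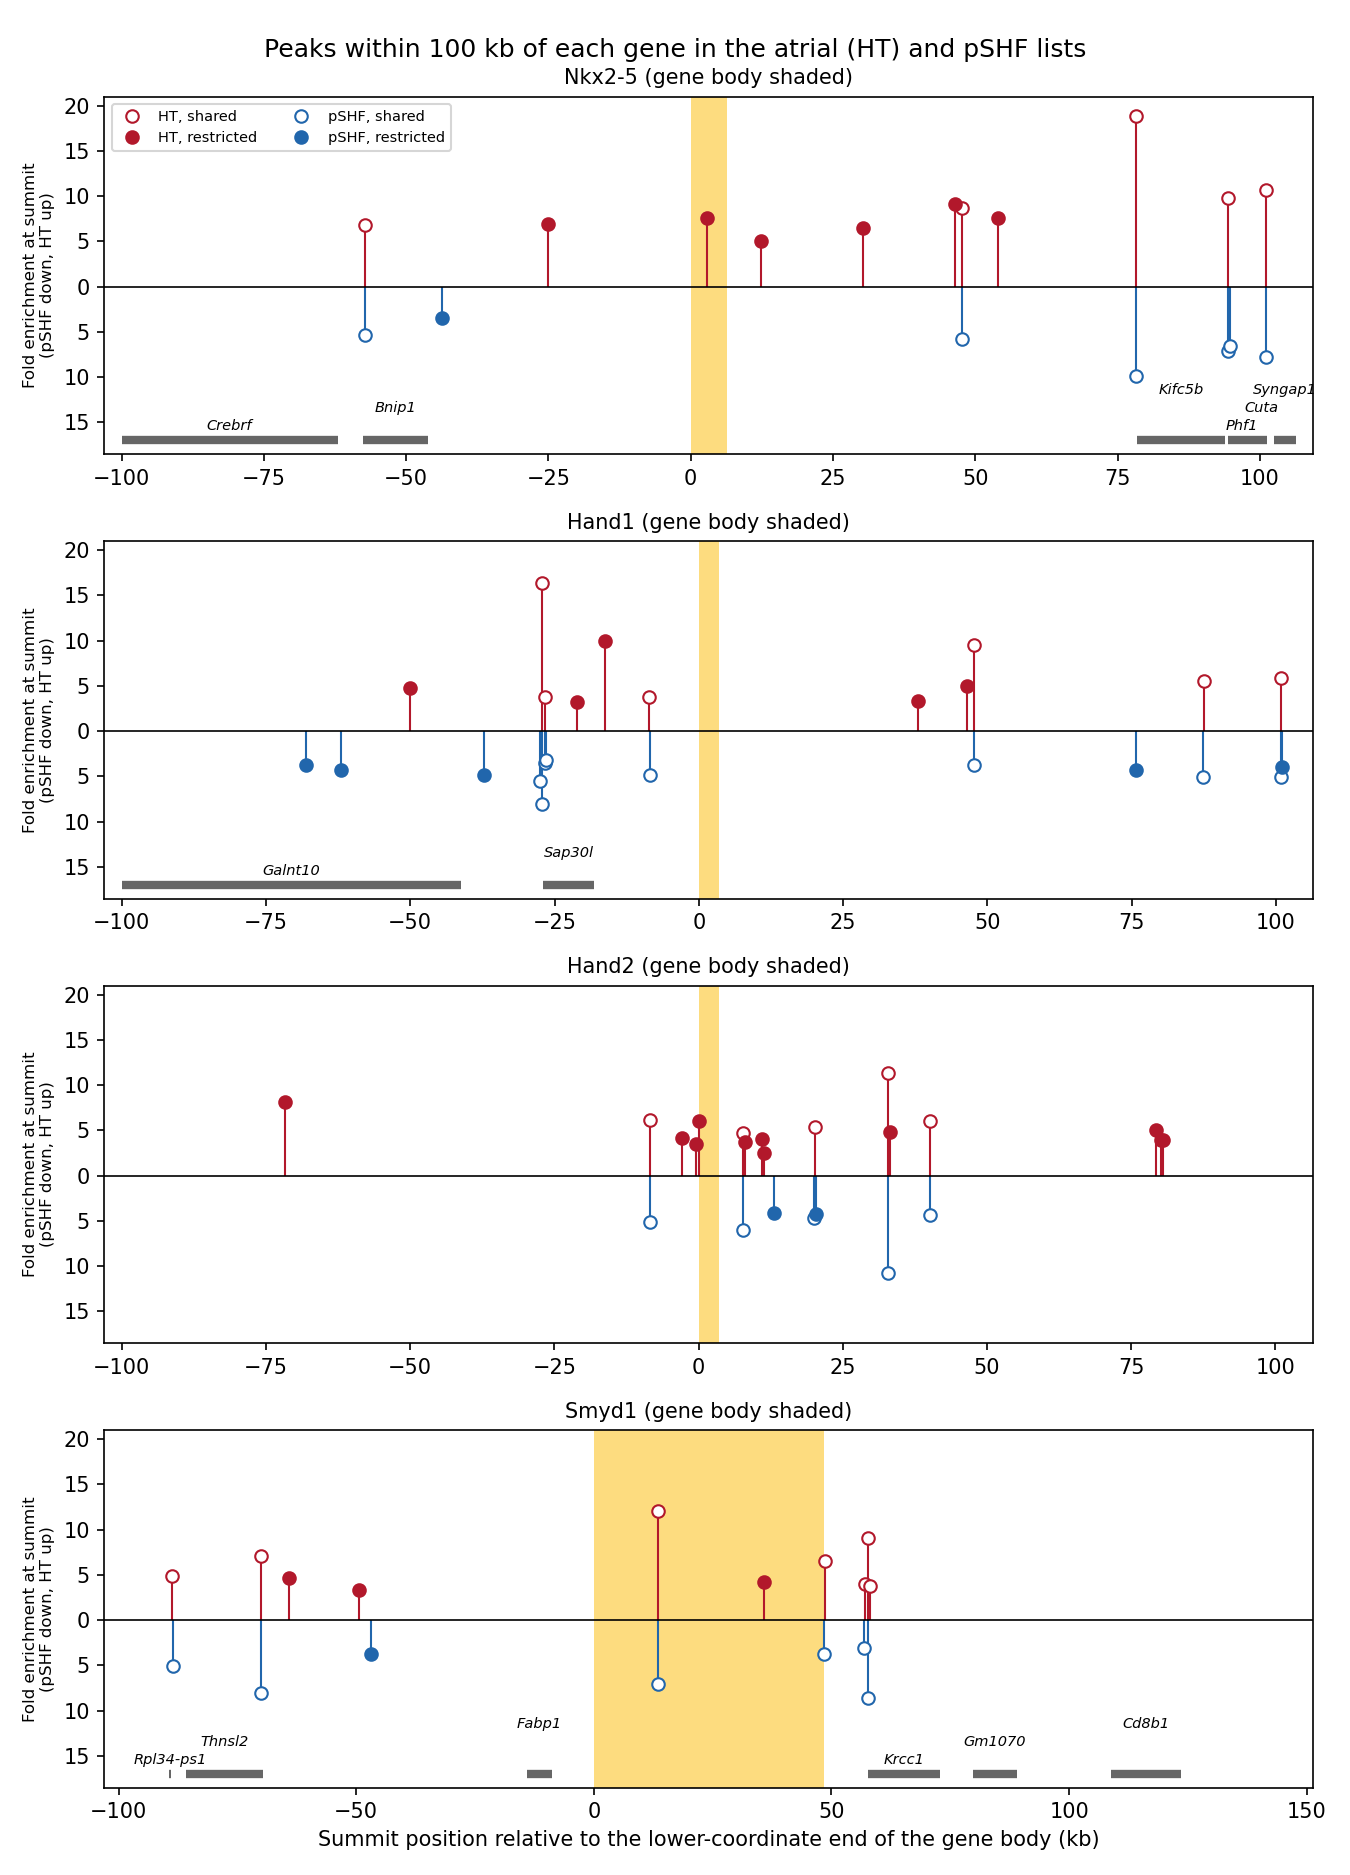
Every peak with its summit within 100 kb of *Nkx2-5*, *Hand1*, *Hand2* or *Smyd1*, by position in kb from the lower-coordinate end of the gene body and by fold enrichment at the summit. HT points up in red and pSHF points down in blue, filled circles are restricted and open circles shared, grey bars are other protein-coding genes, and the region upstream of *Nkx2-5* and *Smyd1* lies to the right. From the gene body of *Nkx2-5* to 40.1 kb beyond it, filled HT circles stand without a pSHF circle, and *Hand2* has 11 filled HT circles.

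*Hand2* had the largest number of HT-restricted peaks of the 4 genes when no threshold of strength was set. With a −log10 q of at least 5 the order turned, with 4 at *Hand2* and 6 at *Nkx2-5*, and at or above the list's median fold enrichment the numbers were 2 and 5. Its body, chr8:57320983-57324517, is surrounded by noncoding genes, with no other protein-coding gene in the window. The window held 16 HT peaks, of which 11 were restricted (68.8%, interval 41.3 to 89.0), and 7 pSHF peaks, of which 2 were restricted (28.6%, 3.67 to 71.0). Both intervals include the genome-wide shares. Of all 21631 protein-coding genes, 1.85% had as many HT-restricted peaks within 100 kb.

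Most HT-restricted peaks of *Hand2* lay close to the gene. Besides the promoter peak, 2 peaks upstream of the start lay inside *Hand2os1*, at 506 and 2907 bp, with 13 and 16 reads. Downstream, chr8:57328952-57329104, chr8:57331785-57332073 and chr8:57332253-57332373 lay 8.04, 10.9 and 11.3 kb from the start with 20, 22 and 13 reads. The local background of these 3 peaks was 4.63 to 4.72 reads, and only 3.79% of HT peaks had one of at least 4.6. The third of them, at the edge of the list, had a −log10 q of 1.31 with a fold enrichment of 2.48. A peak at chr8:57354008-57354177 stood 66 bp from a pSHF peak, and chr8:57328952-57329104 stood 100 bp from another. Far from the gene, chr8:57248970-57249399 lay 71.7 kb upstream with the highest fold enrichment of the restricted group, 8.14, and 17 reads. The remaining 3 lay 79.4 to 80.5 kb downstream of the start with 7 to 9 reads, nearer to *Scrg1*.

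No shared site of *Hand2* differed by 1.5 times in fold enrichment between the lists. The strongest, chr8:57353472-57353928, lay 32.8 kb downstream of the start inside the noncoding gene *Hdnr*, with a fold enrichment of 11.3 and 32 reads in HT and 10.7 and 25 reads in pSHF. In the pSHF list this fold enrichment was above 97.0% of peaks, in the HT list above 89.6%. The site 8.46 kb upstream, inside *Hand2os1*, had 6.17 in HT and 5.08 in pSHF. A site 20.2 kb downstream had 5.37 and 4.65, and one 40.2 kb downstream had 6.03 and 4.31. At chr8:57328531-57328827, 7.75 kb downstream, the order of the lists depended on the measure. Fold enrichment was 4.76 in HT and 6.06 in pSHF, while HT had 26 reads and pSHF had 24. The caller's local background there was 4.67 reads in HT and 3.13 in pSHF, against medians of 1.29 and 1.49 over all peaks. Across the 5 shared pairs the ratio of pileups was 1.08 to 1.44, and each exact interval included 1.

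Both pSHF-restricted peaks of *Hand2* lay downstream. The one at chr8:57333939-57334538 was 600 bp wide, covered the promoter window of the noncoding gene *Gm34030*, and had a fold enrichment of 4.17 and 14 reads. The other, chr8:57341215-57341380, stood 16 bp from an HT peak and had 4.22 and 10 reads. Their −log10 q values, 4.32 and 3.44, were below 5, a level that 15.9% of pSHF-restricted peaks reached genome-wide.

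Within 100 kb, *Hand1* had 5 restricted peaks in each list. The equality depended on the window, with 4 in HT and 1 in pSHF within 50 kb and 13 and 7 within 200 kb. Among peaks with *Hand1* as the nearest protein-coding gene, 2 were HT-restricted and 0 pSHF-restricted, and the 5 pSHF-restricted peaks lay nearest to *Galnt10* or *Larp1*. Its body is chr11:57828713-57832147. The window held 11 HT peaks, 5 restricted (45.5%, interval 16.7 to 76.6), and 13 pSHF peaks, 5 restricted (38.5%, 13.9 to 68.4). The strengths of these restricted peaks differed. One HT-restricted peak, chr11:57812271-57812576, had a fold enrichment of 9.92, a −log10 q of 18.6 and 25 reads, and lay between *Sap30l* and *Hand1*, 16.3 kb from the *Hand1* body. The other 4 HT-restricted peaks had 3.27 to 4.99 with 6 to 9 reads. The 5 pSHF-restricted peaks had 3.77 to 4.85 with 6 to 8 reads, and none had a −log10 q of 5. One of them, chr11:57929724-57929985, stood 10 bp from an HT peak.

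The shared site with the widest gap between the tissues among peaks nearest to *Hand1* was chr11:57876298-57876483, 44.2 kb from the gene body on the higher-coordinate side. It had a fold enrichment of 9.54 and 18 reads in HT, and 3.77 and 6 reads in pSHF. The ratio of pileups was 3.0, with an interval of 1.14 to 9.23 that includes the genome-wide 1.30. The weak site 8550 bp from the gene had the opposite order, with 3.74 and 6 reads in HT and 4.84 and 8 reads in pSHF, and its ratio of 0.75 had an interval of 0.214 to 2.46. The strongest peak of the window belonged to the shared promoter of *Sap30l* and *2010001A14Rik*, with 16.3 in HT and 8.11 in pSHF. Beyond these, sites at 84.1 and 97.5 kb had 5.49 and 5.81 in HT and 5.05 and 5.07 in pSHF.

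*Smyd1* had 3 HT-restricted peaks and 1 pSHF-restricted peak, the same as the medians over all protein-coding genes. The gene body spans 48.3 kb, chr6:71213940-71262281. Its window held 10 HT peaks, 3 restricted (30.0%, interval 6.67 to 65.2), and 7 pSHF peaks, 1 restricted (14.3%, 0.361 to 57.9). The strongest HT peak of the window, chr6:71227114-71227564, lay inside *Smyd1*, 34.9 kb downstream of the start. Its fold enrichment was 12.0 with 30 reads in HT, and 7.07 with 14 reads in pSHF. The ratio of pileups was 2.14, with an interval of 1.10 to 4.37 that also includes the genome-wide median of 1.30. Over the 6 shared pairs of the window, 4 had the higher fold enrichment in HT. Their median log2 ratio of fold enrichment was 0.21 (interval −0.19 to 0.80), against 0.32 over all pairs of the genome. A second peak inside the gene, chr6:71249707-71249827, was restricted to HT and weak, with 4.23 and 8 reads.

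Elsewhere in the *Smyd1* window the fold enrichments were closer. At the promoter of its neighbour *Krcc1* the fold enrichment was 9.07 in HT and 8.65 in pSHF. At *Thnsl2* it was 7.06 in HT and 8.06 in pSHF, and at a site near *Rpl34-ps1* it was 4.93 and 5.05. At a site 8.62 kb before the *Smyd1* start the fold enrichment was 3.999 in HT and 3.12 in pSHF. The 2 other HT-restricted peaks and the pSHF-restricted peak lay 46.9 to 64.2 kb from the gene body with 5 to 8 reads, and their −log10 q values were 1.43 to 3.78. No peak of either list had *Fabp1* or *Cd8b1*, known as genes of liver and of T cells, as its nearest protein-coding gene.

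**Figure D3:**
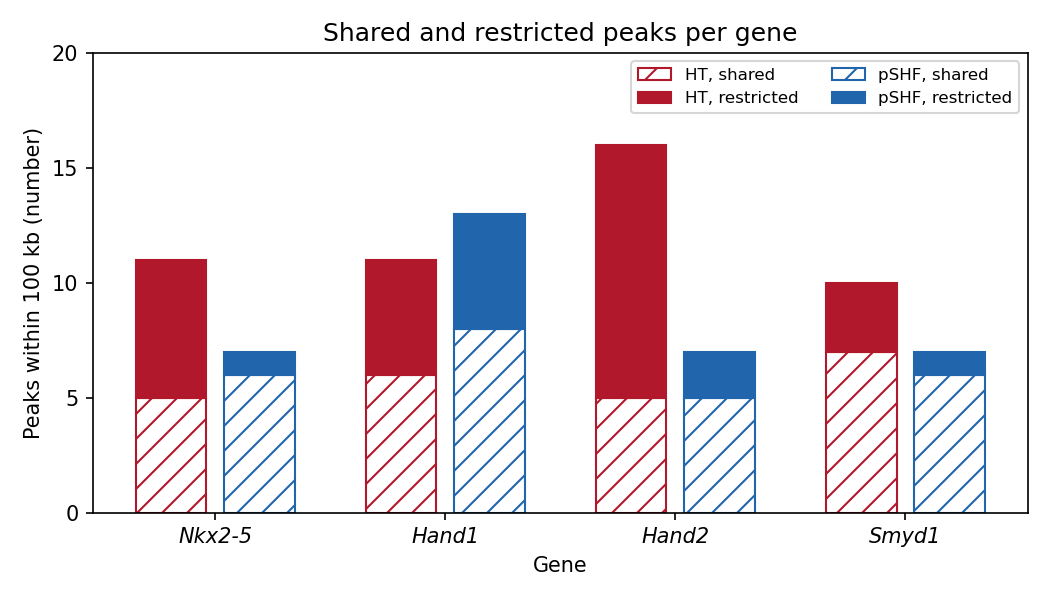
Number of peaks within 100 kb of each gene, as bars for HT (red) and pSHF (blue), hatched for shared and filled for restricted peaks. *Hand2* has 11 restricted HT peaks against 2 in pSHF, and *Hand1* has 5 in each.

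Over the 4 windows, 25 of 48 HT peaks were restricted (52.1%, interval 37.2 to 66.7) and 9 of 34 pSHF peaks (26.5%, 12.9 to 44.4). The genome-wide shares of 45.5% for HT and 34.4% for pSHF lie inside the interval of their own list. Neighbouring peaks may not be independent, and the intervals do not allow for this. The HT-restricted peaks had a median pileup of 13 reads, against 9 over all HT-restricted peaks. By fold enrichment they were not stronger, with a median of 4.79 against 4.84. The pSHF-restricted peaks had a median pileup of 8, as over all pSHF-restricted peaks, and a median fold enrichment of 4.17 against 4.31. A −log10 q of 5 was reached by 11 of the 25, against the 40.9% given above. By gene, HT-restricted peaks outnumbered pSHF-restricted ones at *Nkx2-5* by 5, at *Hand2* by 9 and at *Smyd1* by 2. More HT-restricted peaks were found at 55% of protein-coding genes and more pSHF-restricted peaks at 20.5%, with a median difference of 1. A difference as large as that of *Hand2* was found at 1.43% of genes, as that of *Nkx2-5* at 11.0% and as that of *Smyd1* at 39.1%.

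**Figure D4:**
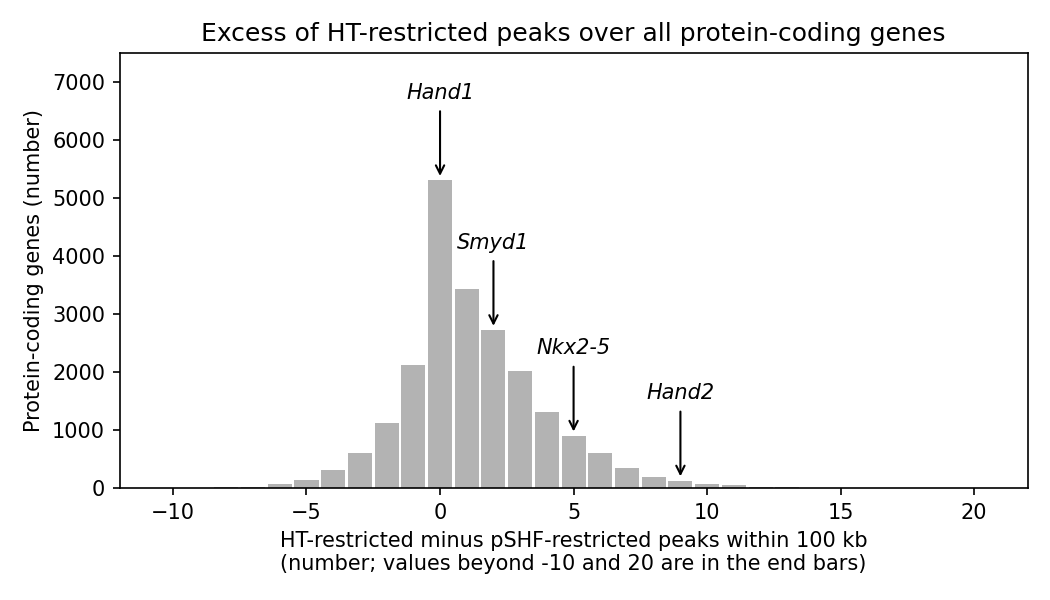
Number of protein-coding genes (vertical axis) by the difference between HT-restricted and pSHF-restricted peaks within 100 kb (horizontal axis). Arrows mark *Hand1* at 0, *Smyd1* at 2, *Nkx2-5* at 5 and *Hand2* at 9, in the right tail.

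Shared sites of the 4 windows leaned to the atria by about as much as shared sites elsewhere. Of 25 pairs, 21 had the higher fold enrichment in HT, against 78.1% genome-wide, and the median log2 ratio of HT to pSHF fold enrichment was 0.36 (interval from the order statistics 0.12 to 0.59). Over all 28886 pairs the median was 0.32. Some of the 25 pairs, at *Sap30l* and *Phf1*, joined different pSHF peaks to the same HT peak. The pairs are therefore not independent, and the interval does not allow for this. Taking the HT peak of highest fold enrichment can raise the ratio, in the windows as in the genome. At least 1.5 times more fold enrichment in HT was found at 8 of the 25 pairs, against 26.8% genome-wide, and at least 1.5 times more in pSHF at none, against 2.07%. The 8 pairs were 3 at *Nkx2-5*, 3 at *Hand1* and 2 at *Smyd1*. Those nearest to a member were the promoter and the internal site of *Smyd1* and the site 44.2 kb from *Hand1*. The other 5 lay nearest to *Kifc5b*, *Phf1* or *Sap30l*, and those of *Sap30l* joined a pair of pSHF peaks to the same HT peak.

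**Figure D5:**
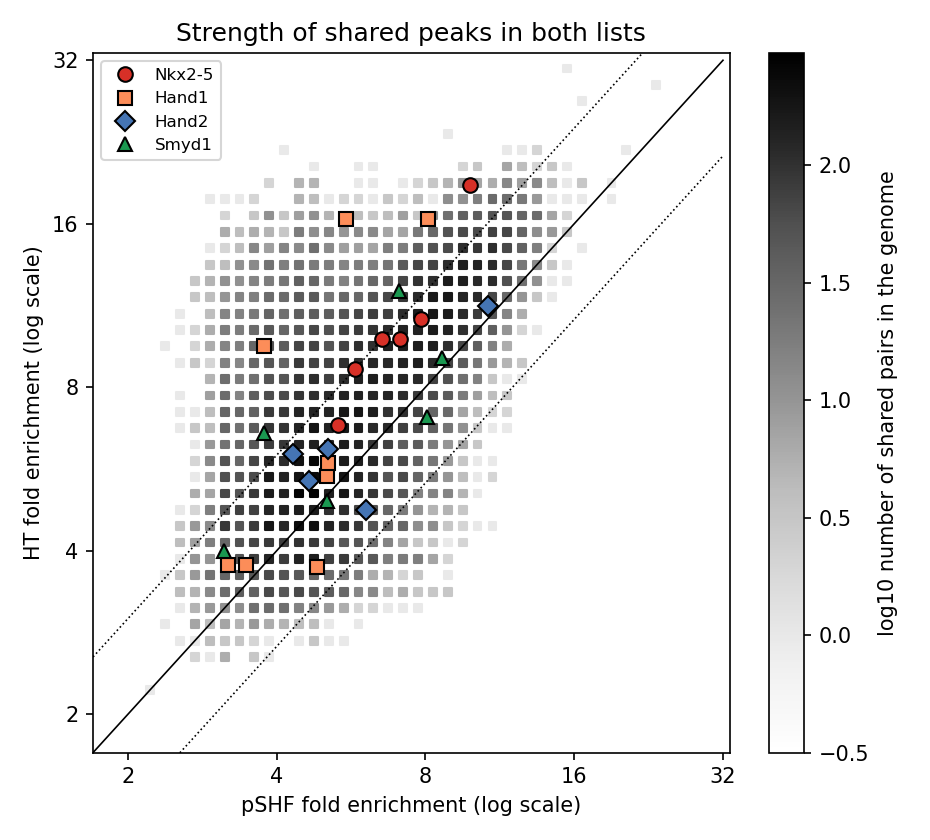
Fold enrichment of shared peaks in pSHF (horizontal, log scale) and HT (vertical, log scale), with the 25 pairs of the 4 windows as coloured symbols over all pairs of the genome in grey. The solid line is equality and the dotted lines are 1.5 times either way. No coloured symbol lies below the lower dotted line, and 8 lie above the upper one.

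Peaks around other genes that work with these factors were counted in the same way. Among 20 further cardiac transcription factor genes, HT-restricted peaks outnumbered pSHF-restricted ones at 12, the reverse held at 5 and the numbers were equal at 3. Over all protein-coding genes the first 2 shares were 55% and 20.5%, so these counts were near the background. The median difference was 2.5, against 1 over all genes. *Myocd*, the serum response factor coactivator gene, had 11 and 1, *Hopx* had 7 and 1, and *Gata4* had 8 and 3. *Tbx18*, a T-box gene of the venous pole, had 2 and 6. Of the 11 with a RefSeq promoter, 10 had a promoter peak in both lists, while *Irx4* had none in either. By the numbers of shared, HT-restricted and pSHF-restricted peaks (Euclidean distance of square roots, over 2 tissues), the closest of the 20 genes was *Hopx* for *Nkx2-5*, *Mef2d* for *Hand1*, *Myocd* for *Hand2* and *Irx4* for *Smyd1*. For each of the 4 genes, 42 to 1977 other protein-coding genes were closer still.

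Of 9 genes for relatives and partners, 6 had more HT-restricted peaks and 2 more pSHF-restricted peaks, with a median difference of 3. The shares over all protein-coding genes were 55% and 20.5%, with a median difference of 1. *Smyd2*, *Smyd3*, *Smyd4* and *Smyd5*, of the same methyltransferase family, had an excess of 2 to 3 HT-restricted peaks each. *Naca*, whose muscle isoform binds SMYD1, had 6 and 1. The E protein genes *Tcf4* and *Tcf12* had 8 and 11, and 2 and 6, while *Tcf3* had 8 of each. Among 11 genes known to be regulated by NKX2-5 or HAND factors (*Irx4* and *Hopx* again among them), 10 had more HT-restricted peaks, against 55% of all protein-coding genes, and the numbers were equal at *Slc8a1*. Of these 11 genes, 6 had an HT peak and no pSHF peak over the promoter window, among them *Nppa* and *Nppb*, the natriuretic peptide genes, and *Myl2*, a myosin light chain gene. The share over all genes was 2.89%. Each gene was counted on its own, so peaks near neighbouring genes such as *Nppa* and *Nppb* can count for both. The 11 genes are therefore not independent. At *Gja5*, a connexin gene, the promoter peak was in the pSHF list.

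Promoters of marker genes gave a check of the dissected pieces. All 6 cardiomyocyte markers had an HT promoter peak and 2 (*Tnnt2* and *Actn2*) had one in pSHF. Of the second heart field markers with a RefSeq promoter, *Isl1*, *Wnt2* and *Aldh1a2* had peaks in both lists. Within 100 kb, the 5 second heart field markers had 14 HT-restricted and 21 pSHF-restricted peaks, against 47 and 14 for cardiomyocyte and 41 and 8 for erythroid markers. Endothelial markers had 31 and 11, atrial 23 and 5, foregut endoderm 18 and 17, and neural crest and sympathetic 7 and 3. Peaks near neighbouring markers, such as the erythroid *Hbb-y* and *Hbb-bh1*, may count for both. The whole lists held 22400 HT-restricted and 15132 pSHF-restricted peaks. Of 3 atrial markers, *Nppa* had an HT peak alone, *Myl4* had both and *Nr2f2* neither. Erythroid promoters (*Gata1*, *Klf1* and *Hbb-y*) had 3 HT peaks and no pSHF peak. The endothelial promoters *Kdr* and *Tek* had peaks in both lists. Each list had a peak at 2 of 4 foregut endoderm promoters, and neither had one at the 2 neural crest promoters. The part of these cell types in the peaks around the 4 genes was not tested.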

How the data were processed

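ATAC-seq peaks were analysed from 2 tissues with 3 samples each. The submitters' processing notes name MACS2 2.1.1, Bowtie2 2.3.2, Picard and SAMtools 1.5, with mm10 as the build. For their settings, the read totals and any pooling of samples, the sources used here give nothing. The deposited lists give each summit a score, a fold enrichment (ratio), a −log10 p-value and a −log10 q-value, as the authors' caller wrote them. The lowest deposited −log10 q was 1.31 in HT and 1.30 in pSHF.

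Lines with equal intervals were merged and the summit of highest fold enrichment kept. A whole pileup and a local background were recovered by taking fold enrichment as (pileup + 1)/(background + 1). They matched the deposited −log10 p within 0.01 at 100% of lines. The genome-wide background was 0.824 reads in HT and 0.857 in pSHF. Shared pairs joined each pSHF peak to the overlapping HT peak of highest fold enrichment. Gene bodies, start sites and promoters came from RefSeq tables of GRCm38.p6, in which 3 of the 4 genes had a promoter. The tables give no exons, so exons and introns were not separated. Shares have exact Clopper-Pearson intervals, which treat peaks as independent, and ratios of pileups have exact conditional binomial intervals. Reads are not independent molecules, so intervals cover counting error only.

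Python 3.11.15, pandas 2.3.3 and scipy 1.17.1 were used. Overlap was checked against bedtools 2.31.1 and pileup recovery was tested on simulated data. Named genes were the 4 members in full, with the closest gene of the cardiac transcription factor list for each. Other listed genes were chosen as examples after their values were seen. Members and gene lists were chosen with earlier results of these data known. Alternatives covered the window, the overlap rule, the threshold, merging, gene ends and gene assignment.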

Additional observations from a re-analysis of the deposited data

How the results depend on the processing

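The 25 HT-restricted peaks became 40 with a window of 200 kb, 14 when kept only where *Nkx2-5*, *Hand1*, *Hand2* or *Smyd1* was the nearest protein-coding gene, 11 with −log10 q from 5 upward and 8 when only peaks not below their list's median fold enrichment were used. Under the same 4 alternatives the 9 pSHF-restricted peaks became 16, 2, 0 and 1. They became 5 with a window of 50 kb and 17 with a 50% reciprocal overlap. By gene, HT-restricted peaks outnumbered pSHF-restricted ones under all 9 alternatives at *Nkx2-5* and *Hand2*. At *Smyd1* they did so under 6, with equal numbers under 3. *Hand1* had more in HT under 5, equal numbers under 3, and 7 against 9 with reciprocal overlap. The median log2 ratio of shared pairs was 0.21 to 0.39 under the 6 alternatives run. Sites under the callable pileup are not in the lists, so low openness was not distinguishable from none at this depth. No paired analysis was possible because the deposited lists hold 1 value per tissue, and for the same reason no sample could be left out.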

Other observations

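Farther from the genes, peaks between 100 and 500 kb of the bodies were counted. Genome-wide, 45.5% of HT peaks and 34.4% of pSHF peaks were restricted. In the *Hand2* surroundings 14 of 24 HT peaks (58.3%) and 2 of 13 pSHF peaks (15.4%) were restricted. The strongest of the 14, chr8:57576273-57576680 inside *Galnt7*, had a fold enrichment of 8.32 and 19 reads. The stronger of the 2 pSHF-restricted peaks, chr8:56962115-56962606, lay 358.5 kb from *Hand2*, its nearest protein-coding gene, with 6.46 and 11 reads. In the outer surroundings of *Hand1*, 9 of 29 HT peaks (31.0%) and 9 of 32 pSHF peaks (28.1%) were restricted. Both lists contained a strong restricted peak there. In HT this was chr11:57954534-57954981, 122.5 kb from *Hand1*, with 12.0, 38 reads and a −log10 q of 29.9. In pSHF it was chr11:57977699-57977894 inside *Larp1*, 145.6 kb from *Hand1*, with 8.08, 14 reads and a −log10 q of 10.4. Around *Nkx2-5* the numbers were 18 of 37 HT peaks and 8 of 28 pSHF peaks, and around *Smyd1* 16 of 33 and 10 of 27. These regions hold many other genes, and no link to the 4 genes was tested.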
